A study of Drosophila melanogaster with 2 samples.

Results

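Divergent promoters are places where 2 protein-coding genes start close together and are read away from each other, the gene on the minus strand lying at the lower coordinate. On the autosomes of Drosophila melanogaster, 1093 summits of Inv-eGFP binding lay at such promoters, out of 3406 peaks in the pooled thresholded list, 2757 autosomal peaks and 2187 autosomal promoter summits. A summit, the base of highest signal in a peak, was taken when it lay within 500 bp of a protein-coding transcription start site on 2L, 2R, 3L, 3R or 4. The start nearest to it also had to have a start of another gene head to head with it within 1000 bp. The peaks had first passed the authors' reproducibility threshold. Among them, the choice used positions and the gene annotation, and no signal value or sequence. The 1093 summits belonged to 941 gene pairs with 1873 distinct genes and made up 39.6% of autosomal peaks. The data come from chromatin immunoprecipitation with an anti-GFP antibody and sequencing (ChIP-seq) on whole embryos collected at 0 to 24 h from the transgenic fly strain inv-GFP, which carries an insertion for an Inv-eGFP fusion protein. The samples are 2 biological replicates of this 1 group, and there was no other condition. Each library mixes all tissues and stages of the collection, and the labels give both replicates the same strain donor. Peak lists on the dm6 build were the data, so library depth is unknown, and control libraries were not analysed here. With 2 libraries and 1 group, summits of a library are not replicates, so every comparison is a description given in the pooled list and, where possible, in each replicate's own list.

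Invected is a close relative of Engrailed, and homeodomain proteins of this class are known to favour DNA that holds TAATTA. Many compact fly promoters, above all those of genes that most cells use, carry the DNA replication-related element (DRE), TATCGATA, which is known to be bound by the factor DREF. The boundary protein BEAF-32, which is known from head-to-head gene pairs, binds words with the letters CGATA, so both proteins can meet the same stretch of DNA. In a divergent pair the starts share a short stretch of DNA in which regulatory factors can sit near both genes at once.

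The sequences of 6 sites show what lay under the summits. They are the strongest member with TATCGA within 50 bp, listed in both replicates, on each of 2L, 3L, 3R and 4, the strongest on these arms without it, and the strongest on them with TAATTA. The remaining autosomal arm is not shown, and stronger members with TATCGA and with TAATTA lie on it. Each is the plus strand of dm6, up to 75 bases on either side of the summit and cut where an annotated start of the pair began, so that it lies between the starts. Capitals mark TATCGA or its reverse complement in the first 4, and TAATTA in the last. The one at Mic26-27 and CG5916 has none of the marked words.
Sec61alpha and Daxx, chr2L:6480801-6480928, plus strand: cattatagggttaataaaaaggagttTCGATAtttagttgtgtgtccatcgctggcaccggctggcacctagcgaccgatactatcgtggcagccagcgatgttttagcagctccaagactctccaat
Fibp and Deaf1, chr3L:19818057-19818173, plus strand: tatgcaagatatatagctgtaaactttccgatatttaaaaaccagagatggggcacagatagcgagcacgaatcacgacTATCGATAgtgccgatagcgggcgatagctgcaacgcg
RpL32 and CG7943, chr3R:30046162-30046302, plus strand: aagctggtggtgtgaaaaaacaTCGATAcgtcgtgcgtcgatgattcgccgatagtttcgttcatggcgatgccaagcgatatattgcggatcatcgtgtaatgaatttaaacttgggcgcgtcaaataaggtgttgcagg
CG11076 and ATPsynbeta, chr4:1031758-1031863, plus strand: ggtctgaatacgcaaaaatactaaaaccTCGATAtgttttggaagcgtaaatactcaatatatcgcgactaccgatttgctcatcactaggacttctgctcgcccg
Mic26-27 and CG5916, chr3R:16146856-16146975, plus strand: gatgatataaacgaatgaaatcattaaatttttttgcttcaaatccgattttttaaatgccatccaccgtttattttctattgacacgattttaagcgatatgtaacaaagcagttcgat
Vps36 and Liprin-beta, chr3L:13513155-13513253, plus strand: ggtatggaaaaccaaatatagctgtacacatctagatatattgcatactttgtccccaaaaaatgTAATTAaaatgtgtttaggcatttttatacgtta
The marked word was centred 46.5, 6.50, 40.5 and 17.5 bp from the summit at the Sec61alpha, Fibp, RpL32 and CG11076 sites. TAATTA was centred 7.50 bp from the summit at the Vps36 site. The Fibp site holds the whole DRE in capitals, and the distance there is that of TATCGA alone. The sites without TATCGA were the poorest in G and C, with 29.2% at Mic26-27 and 29.3% at Vps36, while the other 4 had 42.5% to 47.7%. Over all members the gap was small, with 40.2% G and C within 50 bp of the 497 summits with TATCGA and 38.6% at the 596 without it.

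Divergent promoters carried higher signals than other autosomal promoters in the pooled list. The signal is the peak height set by the authors' processing, on a scale that is not stated, and it is comparable within 1 list only. The 1093 summits had a median of 187 (quartiles 102 and 352), against 129 for the 1094 summits at other promoters. Of those others, 641 lay at genes with 1 start position, with a median of 139, and 453 at genes with starts more than 100 bp apart, with a median of 114. In the list of replicate 1 alone the medians were 135 at 1018 divergent summits and 95.1 at 983 others. In that of replicate 2 alone they were 88.5 at 764 and 82.9 at 637, so the gap was narrower there. In the conservative pooled list the medians were 213 and 193. Of the 100 strongest autosomal peaks, 51 were divergent and 47 lay at other promoters.

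Both replicates listed most of the divergent summits. A thresholded peak of each replicate overlapped 713 of the 1093 peaks (65.2%, exact 95% interval 62.3% to 68.1%), against 557 of 1094 at other promoters (50.9%). Without shoulders, which are described further on, the shares were 64.9% and 51.1%. The share was 48.7% over all autosomal peaks and 58.1% over all autosomal promoter summits. Among divergent summits, 268 overlapped a peak of replicate 1 only, 39 of replicate 2 only and 73 of neither. Replicate 1 held 981 of them (89.8%) and replicate 2 held 752 (68.8%), while the conservative list held 931 (85.2%). In the full ranked lists, all 1093 had a peak in replicate 1 and 1076 in replicate 2. Replicate signals correlated with a Spearman rho of 0.825 across these 1076 and of 0.702 across 1057 others. These are descriptions, since the sites share their libraries and neighbouring peaks share values.

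**Figure D1:**
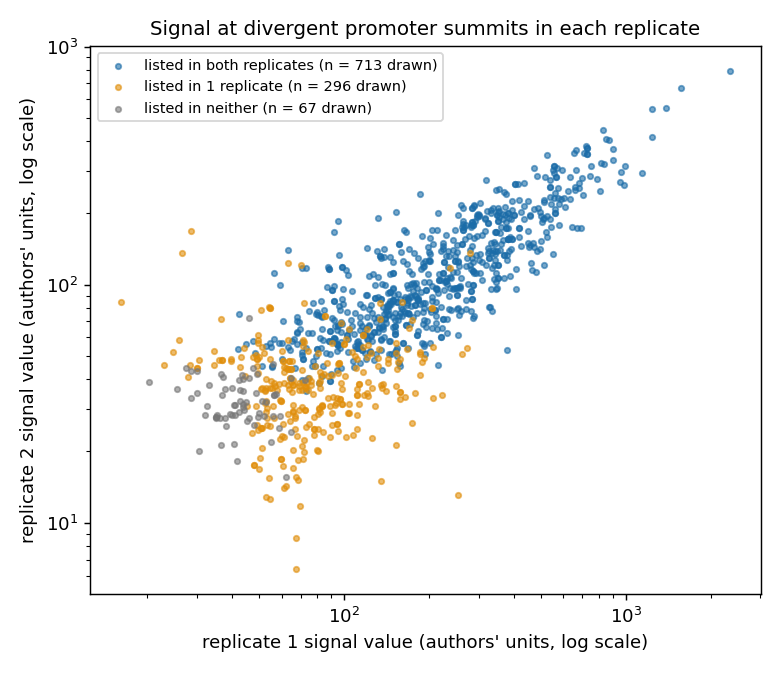
Each point is 1 of the 1076 divergent promoter summits with a ranked peak in both replicates, with the replicate 1 signal across and the replicate 2 signal up, in the authors' units on log axes. Colours give the thresholded lists that held it. Summits listed in both replicates fill the upper right, and those listed in neither lie at low signal in both.

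Sharing between replicates went with signal. In 5 classes of equal size by pooled signal, from the strongest to the weakest, 100%, 93.6%, 74.4%, 38.1% and 20.1% were listed in both replicates. Of the weakest class of 219, 72 were shoulders, that is, peaks overlapping a stronger peak of the list. These gave 41 of the 44 shared members of the class. Some shoulders, as at barc and Aef1 below, had the replicate values of the larger neighbour, but how many did was not counted. Without shoulders the last shares were 31.3% and 2.04%, and the first 3 were 100%, 93.5% and 74.3%. When all promoter summits were cut into 5 such classes, the strongest had 99.6% of divergent and 100% of other summits in both lists, and the next 91.2% and 92.0%. In the middle class the shares were 66.1% of divergent and 63.0% of other summits. In the lower classes they were 22.8% of divergent against 13.9% of other summits, and 22.7% against 12.7%. Without shoulders they were 14.5% against 12.9%, and 1.04% against 1.51%, so the gap there did not hold. Divergent summits made up 58.0% of the strongest class and 37.2% of the weakest. These differences were not tested.

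The 15 strongest sites listed in both replicates held genes of many functions, with 1 gene for a cytosolic ribosomal protein and 1 for a proteasome subunit. The highest signal in the whole list, 3141, was at TAF1C-like and MESK2 on 2R, with 2344 in replicate 1 and 790 in replicate 2, and its summit lay 79 bp from the MESK2 start. RpL32, which encodes a large-subunit ribosomal protein, and CG7943 followed with 2224 (1569 in replicate 1 and 668 in replicate 2). Rpn6, a subunit of the proteasome lid, and ave, an adaptor in Ras signalling, had 1930 (1391 and 554 in replicates 1 and 2). Mic26-27, a protein of the complex that shapes mitochondrial cristae, and CG5916 had 1797 (1234 and 544). All 4 ranked in the first 7 peaks of each replicate.

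Translocon genes appeared at 2 of the next sites. Sec61alpha, the channel of the translocon in the endoplasmic reticulum, is paired with Daxx, a histone chaperone, and this site had 1658 (1241 in replicate 1 and 415 in replicate 2). Sec61beta, another translocon subunit, is paired with Su(var)2-HP2, a partner of heterochromatin protein HP1, and had 1449 (1145 and 294). Here the starts were 653 bp apart and the summit lay 72 bp from that of Sec61beta. Hsp68, a heat shock protein, and SMC1, a subunit of cohesin, had 1308 (991 and 314), with starts 977 bp apart and the summit 46 bp from SMC1.

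The other 8 of the 15 strongest sites listed in both replicates had signals from 1294 to 1239. They were RabX1 with mi, PRL-1 with EndoGI, wmd with levy, CG11779 with nanos, Fibp with Deaf1, janA with Sry-alpha, Pde11 with CG15160, and CG15356 with CG15362. Among these genes, levy encodes a subunit of cytochrome c oxidase, nanos a translational repressor that patterns the posterior of the embryo, and PRL-1 a phosphatase. Of the 15 sites, 14 had the summit between the starts, and the exception was wmd with levy, where it lay 71 bp inside wmd. TATCGA lay within 50 bp of 8 of the 15 summits and TAATTA of none. Their ranks reached at most 36 in replicate 1 and 100 in replicate 2.

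The weakest members were shoulders of stronger peaks. CG3448 with ghi had a pooled signal of 2.84, barc with Aef1 2.93 and KFase with epsilonCOP 3.37. At barc and Aef1 the overlapping ranked peaks had 382 in replicate 1 and 156 in replicate 2, values that belong to the larger neighbouring peak. In all, 107 members (9.79%) overlapped a stronger peak of the list. They had a median signal of 40.5, and 43.9% lay between the starts, while the other 986 had a median of 204 and 79.7% between the starts. TATCGA lay near 14.0% of the shoulders and near 48.9% of the rest.

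Summits lay close to 1 start and most often between the starts. The starts of a pair were a median of 310 bp apart (quartiles 203 and 479). Of the 1093 summits, 833 lay between them (76.2%, exact 95% interval 73.6% to 78.7%), which the choice of members did not require. Replicate 1 alone gave 80.1%, and replicate 2 alone gave 77.6%. The median distance was 50 bp to the nearest start and 267 bp to the farther one, and 859 summits (78.6%) lay within 500 bp of both. At other promoters the median distance to the nearest start was 62 bp. Within 100 bp of the nearest start lay 78.1% of divergent and 67.2% of other summits, and upstream of it 75.8% and 69.3%. Neither strand prevailed, with 568 summits nearest a plus-strand start and 525 nearest a minus-strand one.

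**Figure D2:**
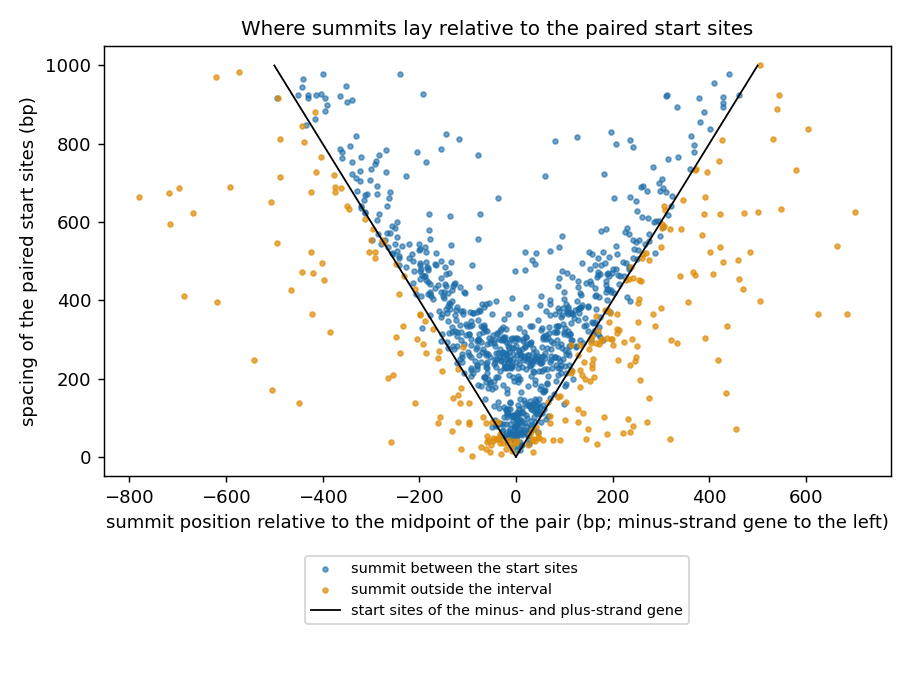
Each point is 1 of the 1093 divergent promoter summits, with its distance from the midpoint of the paired starts across and the spacing of the starts up, both in bp. Lines mark the starts. The 833 summits between the starts fill the V formed by the lines and follow its arms at wide spacing rather than its centre.

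Position changed with spacing. When the interval between the starts was cut into 3 equal parts, 209 of the 833 summits lay in the central part and 624 in the parts next to a start. The outer parts, 1 beside each start, together cover most of the interval, so by length alone they would hold most summits. These counts also pool all spacings. For starts up to 100 bp apart, 56.1% of summits lay between them, and the median distance to the nearest start was 21 bp. At a spacing of 201 to 300 bp these values were 84.4% and 75 bp, and at 501 to 1000 bp they were 71.1% and 50 bp. The summits of widely spaced pairs thus sat at 1 of the promoters, a median of 298 bp from the midpoint.

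At 143 pairs there was more than 1 summit, with 2 at 134 pairs and 3 at 9. In 102 of the 143 (71.3%) the summits were nearest the starts of both genes, and the median span from the first to the last was 213 bp. Peaks overlapped at 103 of them. Of the 40 with separate peaks, 35 had a summit nearest each gene. At geminin, an inhibitor of replication licensing, and sced the signals were 556, 160 and 27.02. The strongest lay 33 bp from the geminin start, and the weakest was a shoulder. Diap1, an inhibitor of apoptosis, and Mbs, a subunit of myosin phosphatase, had 381 at a summit 53 bp from Diap1 and 80.7 at one 147 bp from Mbs, with a shoulder of 6.02. At Nin and Bub1, a kinase of the spindle checkpoint, they were 444, with 107 and 32.8 at shoulders. At NTPase and lilli the signals were 445, 108 at a shoulder, and 73.9. Acbp1 and Piezo, a mechanically gated channel, had 198, 94.5 at a shoulder, and 52.6.

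Most annotated divergent pairs held no summit. The annotation has 2238 such pairs on the autosomes, with 4269 of the 11749 autosomal protein-coding genes (36.3%), and 941 pairs held a summit (42.0%, exact 95% interval 39.99% to 44.1%). In the list of replicate 1 alone the share was 40.2%, and in that of replicate 2 it was 30.1%. A summit lay within 500 bp of a start of 1813 of the 4269 genes in divergent pairs (42.5%), against 949 of the 7480 other genes (12.7%). The shares were 41.0% and 11.6% in replicate 1 alone, and 30.3% and 7.65% in replicate 2 alone. A summit between close starts counts for both genes of a pair, so 1 summit can add 2 genes. Both genes lacked a name other than a CG or CR number at 70 of the 941 pairs with a summit (7.44%) and at 246 of the 1297 without (19.0%).

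Occupancy was similar up to a spacing of 500 bp and lower beyond it. A summit was held by 45.6% of pairs spaced 1 to 100 bp, 40.9% of those at 101 to 200 bp, 45.95% at 201 to 300 bp, 45.98% at 301 to 500 bp and 33.2% at 501 to 1000 bp. The exact 95% intervals overlapped among the first 4 classes, and the interval of the widest class was 29.3% to 37.3%. This also overlapped that of the 101 to 200 bp class, 35.4% to 46.6%. A summit was given to the closest pair of its nearest start, so a wide pair sharing that start could miss it. In replicate 1 the widest class had 31.2% and the others 38.3% to 44.5%. In replicate 2 it had 24.9% and the others 28.9% to 33.5%. These classes use the closest starts of a pair. When summits were classed instead by the spacing of the starts paired at each summit, their median signals ran from 176 to 205.

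The arms resembled each other. Divergent summits made up 49.7% of promoter summits of 2L, 48.5% of those of 2R, 50.9% of those of 3L and 51.5% of those of 3R, with median signals of 172, 198, 189 and 191. Pairs with a summit were 41.1%, 42.8%, 40.4% and 43.7% of the annotated pairs of these arms. Chromosome 4, which is small and largely heterochromatic, had 4 divergent summits among 19 promoter summits (21.1%), at 3 of its 11 pairs. CG11076 with ATPsynbeta, which encodes the beta subunit of ATP synthase, had signals of 201 and 169 at separate starts of CG11076. CG46466 with Slip1 had 81.2, and Taf3, a subunit of TFIID, with CG33941 had 73.8.

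TATCGA, the core of the DRE, had the largest difference in share between summits and flanks of all words of 6 letters. It was searched on both strands within 50 bp of each summit and in windows of the same 101 bp centred 500 bp to either side. It lay near 497 of the 1093 divergent summits (45.5%, exact 95% interval 42.5% to 48.5%) and in 4.44% of the flanks, a ratio of 10.2. At other promoters it lay near 467 of 1094 summits (42.7%) and in 3.15% of flanks. Windows of 101 bp centred 50 bp upstream of all 15978 annotated autosomal starts held it in 14.4% of cases. The whole DRE, TATCGATA, which contains TATCGA, lay near 227 divergent summits (20.8%), against 19.1% of other summits and 4.73% of all starts. The words that followed, ATCGAT at 39.4% and CGATAG at 37.2% of divergent summits, overlap TATCGA, and the same 3 words led at other promoters.

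For TATCGA, the order of divergent and other promoters changed from list to list. The shares were 46.1% and 45.3% in replicate 1 alone, 49.5% and 54.5% in replicate 2 alone, and 49.4% and 52.3% in the conservative list, divergent summits given before other ones. Other promoters with 1 start position had 48.4% and those with several had 34.7% in the pooled list. In the strongest of the 5 signal classes of promoter summits, 55.9% of divergent and 71.2% of other ones held it, and in the next 57.1% and 68.3%. In the middle class the shares were 53.9% and 53.1%, and in the weaker classes the order turned, with 33.7% of divergent and 27.5% of other summits and then 13.5% and 11.3%. The differences between divergent and other summits were not tested.

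**Figure D3:**
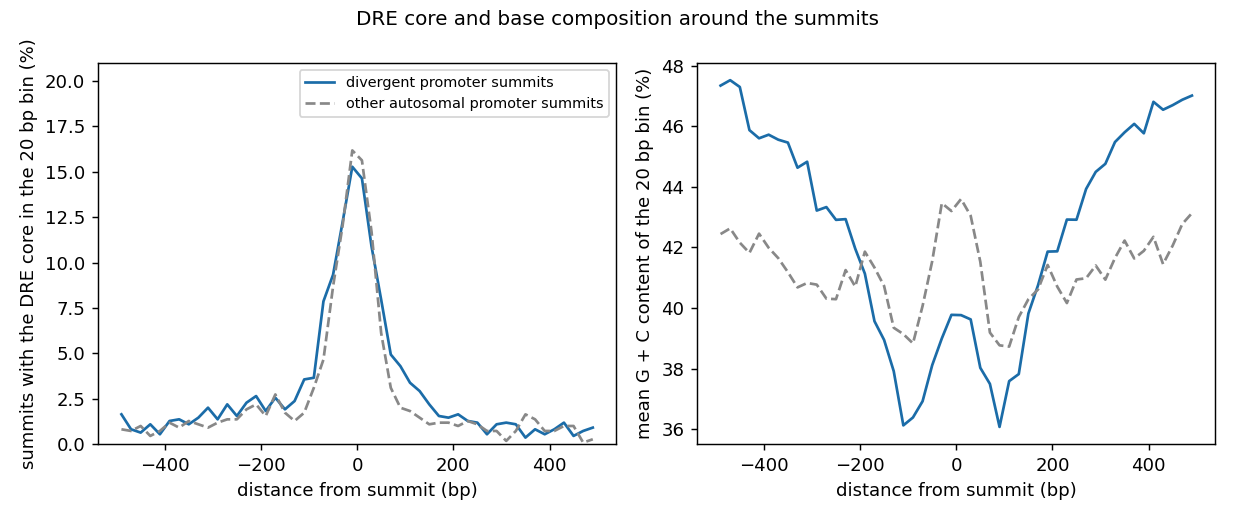
The left panel gives the percentage of summits with the DRE core (the 6-letter word described in the text) in bins of 20 bp, and the right panel the mean G and C content, both against the distance from the summit in bp along the plus strand. Solid lines are the 1093 divergent summits and dashed lines the 1094 other autosomal promoter summits. The DRE core peaks at the summit in both classes, and divergent summits lie in a trough of low G and C between richer flanks.

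The elements were most frequent at the summit and lay mostly upstream of a start, as the summits themselves did. In bins of 20 bp, TATCGA was found at 15.3% and 14.6% of summits in the bins on either side of the summit, and at 3.57% and 3.39% in the bins centred 110 bp away. The 497 summits had 682 elements within 50 bp, overlapping matches counted once. Upstream of the start nearest the summit lay 82.4% of them, a median of 29 bp from it. Of all divergent summits, 75.8% lay upstream of that start. Elements were searched only within 50 bp of a summit, so their share cannot be read apart from that of the summits. By spacing, the share of summits with TATCGA was 60.8% at 1 to 100 bp, 47.5% at 101 to 200 bp, 32.5% at 201 to 300 bp, 43.4% at 301 to 500 bp and 50.8% at 501 to 1000 bp.

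Signal was higher where more elements lay within 50 bp. Medians in the pooled list were 137 at 596 summits with 0 elements, 206 at 335 with 1, 278 at 140 with 2 and 302 at 22 with 3 or more. In replicate 1 they were 114, 145, 192 and 198, and in replicate 2 they were 61.3, 75.4, 97.0 and 110. Listed in both replicates were 55.9%, 74.0%, 80.0% and 90.9%. Without shoulders the pooled medians were 166, 215, 287 and 302. The middle 50% of signals overlapped between neighbouring classes. PRL-1 with EndoGI, starts 82 bp apart, had 4 elements and a signal of 1280 (868 in replicate 1 and 406 in replicate 2). The order is of medians, and strong sites without the word exist, among them Mic26-27 with CG5916 at 1797, Su(var)2-HP2 with Sec61beta at 1449 and RabX1 with mi at 1294.

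**Figure D4:**
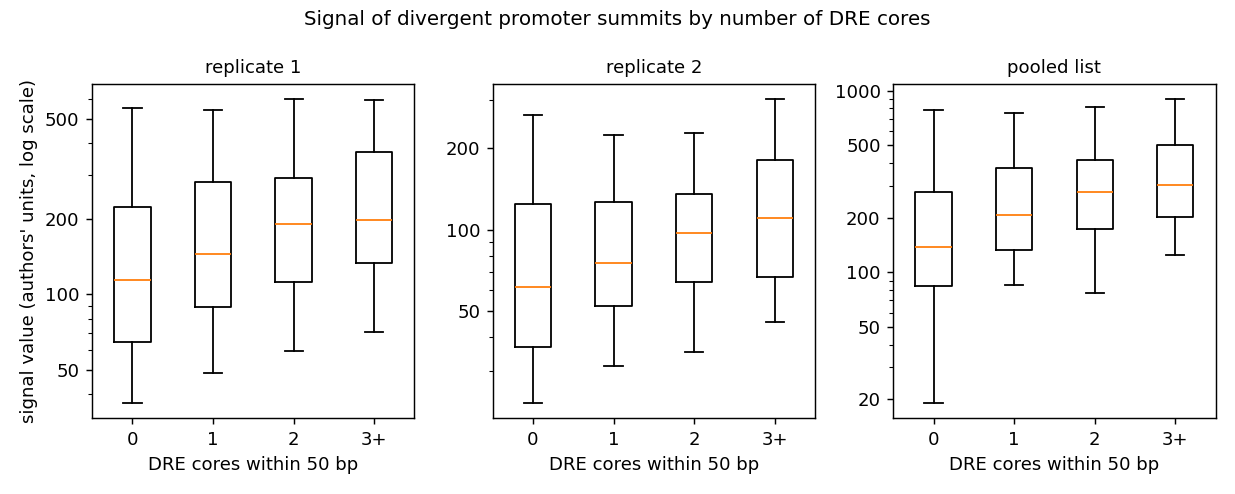
Boxes give the median and quartiles, and whiskers the 5th and 95th percentiles, of the signal of divergent promoter summits by the number of DRE cores within 50 bp, on log axes in the authors' units, in replicate 1, replicate 2 and the pooled list. Pooled medians are 137, 206, 278 and 302 from 0 to 3 or more, and the boxes overlap.

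Pairs with and without a summit also differed in their share with TATCGA, though no test was made. Within 150 bp of the midpoint of the starts it lay in 495 of the 941 pairs with a summit (52.6%) and in 258 of the 1297 without (19.9%). Read the other way, 495 of 753 pairs with the word there held a summit (65.7%, exact 95% interval 62.2% to 69.1%), against 446 of 1485 pairs without it (30.0%, 27.7% to 32.4%). The shares were 62.5% and 28.8% in replicate 1 alone, and 52.5% and 18.8% in replicate 2 alone. Still, 258 pairs with the word held no summit in the pooled list, and 446 pairs without it there did. TATCGATA lay in 23.8% of pairs with a summit and 4.24% of those without. The window does not reach the starts of pairs spaced over 300 bp, so the DNA beside those starts was searched in part or not at all. Pairs spaced 301 to 500 bp numbered 559, and the 554 at 501 to 1000 bp held a summit less often (33.2%). The same limit applies to the pair shares of other words below.

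**Figure D5:**
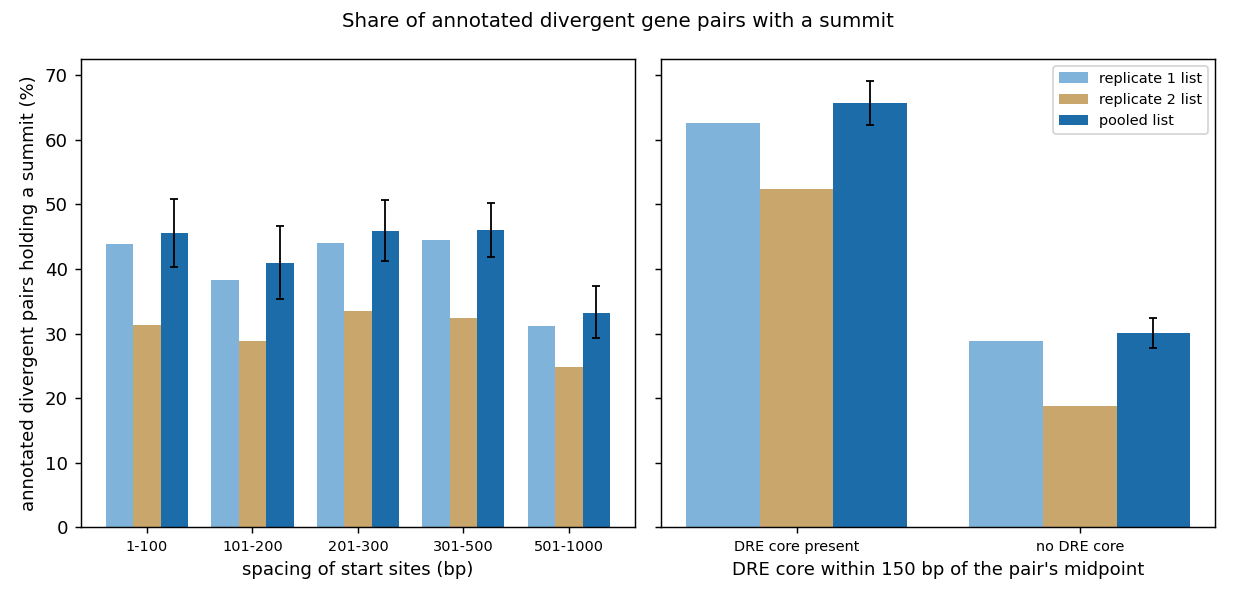
Bars give the percentage of annotated autosomal divergent pairs that held a summit in the lists of replicate 1, replicate 2 and the pooled data, by the spacing of the starts (left) and by the presence of the DRE core within 150 bp of the midpoint (right). Error bars are exact 95% binomial intervals of the pooled list and cover counting of pairs only. The pooled share is 65.7% with the core and 30.0% without it. The window does not reach the starts of pairs spaced over 300 bp.

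TAATTA lay near far fewer of these summits than TATCGA did, though more often than in their flanks. It lay within 50 bp of 66 of the 1093 (6.04%, exact 95% interval 4.70% to 7.62%) and in 3.43% of their flanks, a ratio of 1.76. At other promoters it lay near 3.66% of summits and in 6.40% of flanks, and windows at all annotated autosomal starts held it in 5.39%. Base composition also differed between summits and flanks, and its part in these ratios was not tested. Divergent summits had 39.3% G and C against 47.5% in their flanks, while other summits had 43.0% and flanks of 42.9%. All 36 words of 6 letters made of A and T alone were more frequent at divergent summits than in the flanks, by a median ratio of 2.08, and TAATTA ranked 33 of the 36. Pairs with and without a summit held TAATTA within 150 bp of the midpoint in 29.2% and 28.9% of cases.

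The 66 summits with TAATTA had a median signal of 218, against 186 without it, and 77.3% against 64.5% were listed in both replicates. Other words had gaps in either direction, such as 213 with and 184 without TCAGTT, and 142 with and 192 without CAGCTG. None of these gaps was tested. The 3 strongest with it were CG15118 with CG15111 at 887 (571 in replicate 1 and 309 in replicate 2), Vps36, a subunit of the endosomal sorting complex ESCRT-II, with Liprin-beta at 861 (549 and 304), and HemK2 with Tnpo-SR at 786 (555 and 231). None of these 3 had TATCGA within 50 bp.

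Besides TATCGATA, 10 further words were searched. The ratio of summits to flanks was 1.17 for TAATTG, 1.23 for CAGCTG, 1.21 for TCAGTT and 1.20 for AGATAA. It was below 1 for others, with 0.667 for CACGTG, 0.667 for GAGAGA, 0.583 for CAGCCTG and 0.395 for CGGACG. GGTCACACT, a core promoter word known as Ohler motif 1, lay near 35 divergent summits (3.20%) and in 0.457% of their flanks. It lay near 3.38% of other summits, 18.5 times their flanks, and at 1.92% of all starts, and pairs with and without a summit held it in 7.76% and 7.94% of cases. TATAAA, the TATA box, lay near 164 of the 1093 divergent summits, against 7.18% of their flanks (a ratio of 2.09), 10.3% of other summits and 19.0% of all starts. Being made of A and T alone, it is among the 36 words above. GAGAGA, a word bound by the GAGA factor, lay near 2.29% of divergent summits against 3.43% of flanks and 6.49% of all starts. It lay near the midpoint of 5.31% of pairs with a summit and 10.1% of those without. The initiator word TCAGTT lay near 5.86% of divergent summits, against 4.85% of their flanks and 6.76% of other summits. The windows at all starts held it in 9.33%. They end at the start base, so a copy spanning the start was not counted there, and the 2 shares are not comparable. CGGACG lay near 1.46% of divergent summits against 3.71% of flanks and 1.55% of all starts.

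Genes of protein synthesis and turnover were often in divergent pairs, with 45.9% to 64.5% of each list, against 36.3% of all autosomal protein-coding genes. Counts of paired genes by list are to be read beside the 1873 of all 4269 genes in divergent pairs whose pair had a summit. The 42.0% of all annotated pairs with a summit is a share of pairs. By another measure, 42.5% of all genes in divergent pairs had a summit within 500 bp. Counts of genes outside pairs are to be read beside the 12.7% of all such genes with a summit within 500 bp. A summit at a pair can be nearest the partner gene. The list gene, or 1 of them, was nearest at 16 of 28 summits for cytosolic ribosomal proteins, 4 of 12 for initiation factors, 7 of 11 for aminoacyl-tRNA synthetases and 9 of 13 for proteasome subunits. Of 72 genes for cytosolic ribosomal proteins, 43 were in divergent pairs and 25 of these had a summit at the pair (58.1%), while 13 of the 29 outside pairs had a summit within 500 bp (44.8%). Outside pairs the counts were 6 of 20 initiation factors, 3 of 11 synthetases and 5 of 19 proteasome subunits. RpL32 led this list, followed by RpL26 with CG3902 at 1040 (746 in replicate 1 and 285 in replicate 2) and RpS7 with Anp at 920 (556 and 314). Of 37 translation initiation factors, 17 were in pairs and 10 had a summit (58.8%), led by eIF3c with CCHa1-R at 1104. Of 31 aminoacyl-tRNA synthetases, which charge tRNAs, 20 were in pairs and 10 had a summit, led by TrpRS with Vps16A at 680. Of 42 proteasome subunits, 23 were in pairs and 12 had a summit (52.2%), led by Rpn6 and by Prosalpha7 with CG1671 at 903.

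Mitochondrial genes gave similar shares. Among 62 genes for mitochondrial ribosomal proteins, 49 were in divergent pairs and 29 of these had a summit (59.2%). The strongest were mRpL4 with CG4440 at 984 (701 in replicate 1 and 280 in replicate 2) and mRpL17 with Tudor-SN at 948 (707 and 237). Among 74 nuclear genes of the respiratory chain, 35 were in pairs and 18 had a summit (51.4%), led by ND-SGDH, a subunit of complex I, with RhoGAP68F at 832. Outside pairs a summit lay within 500 bp of 4 of 13 and 6 of 39 genes of these lists. The list gene was nearest at 16 of 34 and 9 of 20 summits. The pair of mRpL39 and Prosbeta2, a catalytic subunit of the proteasome, joins a gene of each of 2 lists and had 535 (376 and 173).

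Splicing and secretion had the highest shares among lists with more than 2 paired genes. Of 30 spliceosome genes, 26 were in pairs and 19 had a summit (73.1%), with 1163 at U4-U6-60K and CG7564 (816 in replicate 1 and 325 in replicate 2) and 798 at SmE and CG34132 (573 and 231). Of 96 genes of the secretory pathway and vesicle traffic, 65 were in pairs and 43 had a summit (66.2%), among them Sec61alpha, Sec61beta and Rab30, whose pair with Caper had 978. Among 32 replication genes, 20 were in pairs and 11 had a summit (55.0%), the strongest at Mcm5, a subunit of the replicative helicase, with Art1 at 534. Among 63 genes of Mediator, TFIID and the RNA polymerases, 45 were in pairs and 20 had a summit (44.4%), led by MED7 with Cap-H2 at 1043 and Taf7 with EMC1 at 937. Outside pairs a summit lay near 0 of 4 spliceosome, 11 of 31 secretory, 7 of 12 replication and 7 of 18 transcription genes. The list gene was nearest at 12 of 22, 31 of 56, 5 of 13 and 10 of 23 summits of these lists. The lists are short, these shares were not tested, and the secretory list holds genes of several functions.

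Among 16 genes for insulator and housekeeping promoter factors, 8 were in pairs and 4 had a summit, while all 8 outside pairs had one within 500 bp, against 12.7% of all genes outside pairs. Like the other lists, this one was chosen with earlier results of these data known, and the difference was not tested. Ibf1 and Ibf2, binding partners of the insulator protein CP190, form a pair with each other and had 279 (202 in replicate 1 and 79.3 in replicate 2). Dref, the gene of the factor that binds the DRE, is paired with RpL13 and had 278 (167 and 122), with no TATCGA within 50 bp. Cp190 with CG4338 had 244 (127 and 111).

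Genes that Engrailed-class factors are known for were rarely in divergent pairs, which hold 36.3% of all autosomal protein-coding genes. Of 53 Hox and other homeobox genes, 2 were, and both pairs had a summit, achi with CG13151 at 200 (122.6 in replicate 1 and 79.2 in replicate 2) and ro with T48 at 142 (135 and 14.97). At ro the peak of replicate 2 did not pass the threshold, and T48 was the nearest gene. Outside pairs a summit lay within 500 bp of 11 of 51 homeobox genes. Of 16 segment polarity genes, 2 were in pairs, and 8 of the 14 others had a summit within 500 bp. The pair of smo, the transducer of Hedgehog signalling, and CG17078 had 341 nearest CG17078 and 71.8 nearest smo, on overlapping peaks that share replicate values of 252 and 90.2. The pair of lin and Pgi, a glycolytic enzyme, had 131 (82.8 and 54.3) nearest Pgi.

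Members in neither replicate's thresholded list were weak. The strongest were CG15019 with TP53INP at 113 (45.9 in replicate 1 and 72.1 in replicate 2), Mpc1, the mitochondrial pyruvate carrier, with CG42613 at 111 (55.8 and 46.3), and Bdp1 with CG6565 at 111 (72.3 and 39.8). All 3 were in the conservative list.

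The limits on position cut through a continuous range. Just inside, the summit of CG42637 with SREBP lay 500 bp from the nearest start (signal 111) and that of rno with mri 480 bp (108). Just outside, that of Nnp-1 with Grx3 lay 504 bp away (88.7) and that of RpLP0-like with 14-3-3zeta 521 bp (241). For spacing, CG15213 with Yod1 at 1000 bp (97.2) and Smg5 with Ance at 984 bp (709) were inside, and CG5805 with Ets96B at 1006 bp (77.8) and Eno with Rrp40 at 1015 bp (404) were outside.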

How the data were processed

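The authors deposited peak lists on dm6, per the labels: ranked and thresholded on the irreproducible discovery rate (IDR), for each replicate and for both pooled. The aligner and peak caller were not given in the sources used here. Column 7 is the authors' signal value, set against a control per the file descriptions. The score the authors deposited is a rescaled IDR, whose minimum of 830 in the thresholded lists stands for an IDR of 0.0100. Chromatin was sonicated to 200 to 800 bp, per the labels. Of the ranked lists, 40 further columns were not used. Depth is unknown, and intervals (exact Clopper-Pearson) cover counting of summits or pairs only.

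Starts came from protein-coding transcripts of Ensembl release 115, and sequence from the RefSeq Release 6 genome. Peaks counted as shared at an overlap of 1 bp or more, and replicate signals are those of the strongest overlapping ranked peak. Printed sequences were cut at the start sites. Named pairs were the 15 strongest in both replicates, the 3 weakest, the 2 strongest per arm, up to 3 per gene list, the 5 with most summits, and the strongest with TAATTA, without TATCGA, spaced over 500 bp or in neither replicate. Members, the 13 words, the 13 gene lists and the rules were chosen with earlier results of these data known. The 5 signal classes of promoter summits, the windows at all starts and the values without shoulders were added after that. Classification, overlap and word search were tested on simulated data. Tables were made with pandas 2.3.3 and numpy 2.4.6 in Python 3.11.15, intervals with scipy 1.17.1 and plots with matplotlib 3.10.9.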

Additional observations from a re-analysis of the deposited data

How the results depend on the processing

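Medians and shares describe 2 libraries of unknown depth and were not tested. No paired analysis was possible because there is 1 group and no contrast between groups. Each replicate's own list in place of the pooled one gave 764 to 1018 divergent summits, 77.6% to 80.1% between the starts, 46.1% to 49.5% with TATCGA (9.95 to 10.3 times the flanks), 6.29% to 6.94% with TAATTA, 30.1% to 40.2% of pairs with a summit and a median signal percentile among autosomal peaks of 55.6 to 60.1, against 64.0 in the pooled list.

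The conservative list gave 74.9% in both replicates, 78.7% between the starts, 49.4% with TATCGA, 6.81% with TAATTA and a percentile of 56.8. The upper 50% by signal gave 696 summits, 87.5% in both replicates, 86.8% between the starts, 56.2% with TATCGA (13.0 times the flanks), 6.61% with TAATTA, 29.8% of pairs and a percentile of 52.4. With 1 start per gene, 71.0% lay between the starts and the ratio was 10.6. The ratio was 11.8 with spacing up to 500 bp and 10.6 with summits within 250 bp. Merged regions gave 79.7% between the starts and 48.9% with TATCGA (11.0 times the flanks). A window of 100 bp gave 60.9% with TATCGA (7.66 times) and 15.2% with TAATTA. Sharing by summits within 100 bp gave 58.4% in both replicates. The cause of these shifts was not tested, except that the wider window holds more bases and the upper 50% fewer peaks.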
